A study of Mus musculus with 6 samples.

Results

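Nek7, a serine/threonine kinase needed for activation of the NLRP3 inflammasome, was examined together with 8 genes of that pathway, Nlrp3, Pycard, Casp1, Casp4, Gsdmd, Il1b, Il18 and Txnip, in cells labelled as macrophages of mouse pancreatic ductal adenocarcinomas and sorted by Cxcr4. The members were selected on this comparison, by its log2 fold change and adjusted p for Nek7 and by their role in the pathway for the rest. These 9 genes, of 53647 in the deposited table, were taken by gene symbol, and each symbol had 1 row. The mice, C57BL/6, carried orthotopic tumours, and RNA-seq of total RNA gave 3 libraries of Cxcr4+ macrophages and 3 of Cxcr4- macrophages, with no other allele or agent named for either group. Both groups came from the same kind of tumour and differ, per the labels, by the sort on Cxcr4 alone. The labels give no age of the mice, do not name the implanted cells, and do not give the mice, separate or pooled, behind each library, so the spread given here is that between libraries and may be technical. In a fit over all 16031 tested genes, Nek7 had an adjusted p of 0.0169 in edgeR's quasi-likelihood test. The values of the 9 members between the groups are therefore given as a description, with no test.

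Inflammasomes are cytosolic complexes that macrophages assemble on sensing infection or damage. In the NLRP3 inflammasome the sensor NLRP3, made after priming by NF-kappaB signalling, binds NEK7 and recruits the adaptor ASC, the product of Pycard, which gathers pro-caspase-1 into filaments. Active caspase-1, from Casp1, matures the cytokines IL-1beta and IL-18 and cleaves gasdermin D, whose free end forms pores in the plasma membrane. Casp4, known in mice as caspase-11, binds cytosolic lipopolysaccharide and cleaves gasdermin D without a sensor of this family. TXNIP binds and inhibits thioredoxin and has been described as a partner of NLRP3.

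The 250 bases before the RefSeq gene start are shown for Nek7, around which the set was built, for Nlrp3, its partner, and for Casp1 and Casp4, whose levels followed each other over the libraries. They are printed 5′ to 3′ on the gene's strand in the build GRCm38.p6, at chr1:138619758-138620007 (reverse strand) for Nek7, chr11:59541319-59541568 (forward) for the second of the start sites listed for Nlrp3, chr9:5298267-5298516 (forward) for Casp1 and chr9:5308599-5308848 (forward) for the first start site of Casp4. By symbol, 8 of the 9 members matched an entry, all but Gsdmd. Capitals mark matches, on either strand, to the NF-kappaB consensus, to the TATA box letters TATAAA, to the box named after its letters CCAAT, or to the GC box letters GGGCGG.
Nek7: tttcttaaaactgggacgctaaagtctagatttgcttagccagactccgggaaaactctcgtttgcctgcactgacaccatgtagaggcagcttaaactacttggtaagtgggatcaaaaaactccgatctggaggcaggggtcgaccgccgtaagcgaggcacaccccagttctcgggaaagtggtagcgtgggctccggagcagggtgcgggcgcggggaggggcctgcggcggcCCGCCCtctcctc
Nlrp3: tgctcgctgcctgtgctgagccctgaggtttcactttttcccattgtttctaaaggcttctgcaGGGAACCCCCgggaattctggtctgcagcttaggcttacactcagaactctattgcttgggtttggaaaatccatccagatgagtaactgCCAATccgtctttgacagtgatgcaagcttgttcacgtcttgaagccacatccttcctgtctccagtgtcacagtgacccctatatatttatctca
Casp1: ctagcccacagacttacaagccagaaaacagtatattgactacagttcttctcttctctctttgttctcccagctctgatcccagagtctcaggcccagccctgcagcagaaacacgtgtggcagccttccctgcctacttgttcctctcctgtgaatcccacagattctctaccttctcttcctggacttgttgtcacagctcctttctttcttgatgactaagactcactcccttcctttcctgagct
Casp4: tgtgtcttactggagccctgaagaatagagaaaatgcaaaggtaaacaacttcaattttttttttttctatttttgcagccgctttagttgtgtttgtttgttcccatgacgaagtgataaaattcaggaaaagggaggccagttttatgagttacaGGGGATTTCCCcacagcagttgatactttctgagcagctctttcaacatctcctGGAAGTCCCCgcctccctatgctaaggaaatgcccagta

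The Nek7 window is rich in G and C, at 58.8% with 17 CpG, against medians of 52.4% and 6 CpG over 32851 windows of the same length, and holds a GGGCGG match on the opposite strand that starts 13 bases before the gene start. GGGCGG is in 32.7% of all windows. The Nlrp3 window holds a CCAAT match, a motif in 33.8% of windows, and an NF-kappaB match that begins 186 bases before the start. The window of the first Nlrp3 start site, not shown, holds none of the motifs, and the second is shown for its matches. That of Casp4 holds overlapping NF-kappaB matches from 93 bases before the start and another at 39. The NF-kappaB consensus is in 7.25% of windows. In the Casp1 window none of these letters were found. TATAAA (12.4%) matched in those of Il1b and Il18. A match describes the sequence and is not a binding site.

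The 6 libraries held 46444934 to 55740671 estimated counts. Replicate 2 of each group stood apart from replicates 1 and 3. By chi-square over its degrees of freedom, pairs with 1 library numbered 2 gave 18.7 to 29.3, the pair of both such libraries 15.1, and pairs of the other 4 libraries 10.7 to 16.3. Of 10 macrophage markers, 9 averaged at least 1 FPKM (fragments scaled for gene length and library depth), and the exception, the mannose receptor Mrc1, averaged 0.0446 in Cxcr4+ and 0.00690 in Cxcr4- libraries. The summed level of 11 neutrophil markers was 6.66 to 9.34 FPKM in the Cxcr4+ libraries, against 7.15 to 10.2 FPKM in the Cxcr4- ones, most of it S100a8, and Csf3r was the other gene averaging over 1 FPKM, with S100a9, Camp and Ngp at 0. Summed markers of fibroblasts (9 genes) stood at 3.36 to 20.2 against 2.07 to 4.05 FPKM and those of tumour and ductal epithelium (7 genes) at 1.17 to 2.45 against 2.19 to 4.50 FPKM. The marker sums were 30.7 to 36.1 FPKM for B cells in Cxcr4+ libraries, against 34.7 to 35.4 in Cxcr4-, all but under 1 FPKM of it Ighm. T and NK cell genes summed to at most 0.102 and dendritic cell genes to at most 0.178 FPKM, with Trac, Cd8a, Nkg7, Ncr1, Siglech and Ccr7 at 0.

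Nek7 RNA was lower in Cxcr4+ macrophages. Its level was 2.90, 2.70 and 2.45 FPKM in Cxcr4+ replicates 1, 2 and 3, against 7.02, 7.16 and 7.82 FPKM in Cxcr4- replicates 1, 2 and 3. The groups lay far apart and the libraries within a group close together. The means were 2.68 ± 0.223 FPKM in Cxcr4+ and 7.34 ± 0.429 FPKM in Cxcr4- libraries (SD, n = 3 each), so that the Cxcr4- mean was 2.73 times the Cxcr4+ mean. The fitted log2 fold change, Cxcr4+ minus Cxcr4-, was -1.45 (SE 0.11). It rests on 1067 to 1351 counts in Cxcr4+ libraries and 2940 to 3025 counts in Cxcr4- libraries; in a bulk library less RNA per cell and fewer cells that carry it cannot be told apart. Without Cxcr4+ replicate 1, which had the highest fibroblast marker sum, the log2 fold change was -1.53. It stayed between -1.53 and -1.40 whichever library was left out, while the call at an adjusted p under 0.05 was kept without Cxcr4+ replicate 2 or without Cxcr4- replicate 2 and lost without any of the other 4 libraries. The sums of the epithelial markers, given above, averaged lower in Cxcr4+ libraries with groups that overlapped, and their part in the Nek7 difference was not tested. The part of fibroblast RNA was not tested either, and leaving out Cxcr4+ replicate 1 is no test of it.

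Nek7 was the 1 member of 9 past the threshold, where 0.0312% of all tested genes were, 5 of 16031, with 0.0187% lower and 0.0125% higher in Cxcr4+. It was also the 1 member whose groups did not overlap, as held for 10.4% of tested genes. Since the set was built on this contrast, these counts describe the choice. Among the 11124 tested genes that averaged at least 1 FPKM, the size of the Nek7 log2 fold change lay at percentile 99.7 and that of Nlrp3 at percentile 97.8. All 9 members passed the filter on low counts. The median log2 fold change over them was 0.10, with 6 positive and 3 negative, among them Pycard and Il1b, whose fitted values rest on few counts, beside 0.0004 over all tested genes with 8031 positive and 8000 negative.

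**Figure D1:**
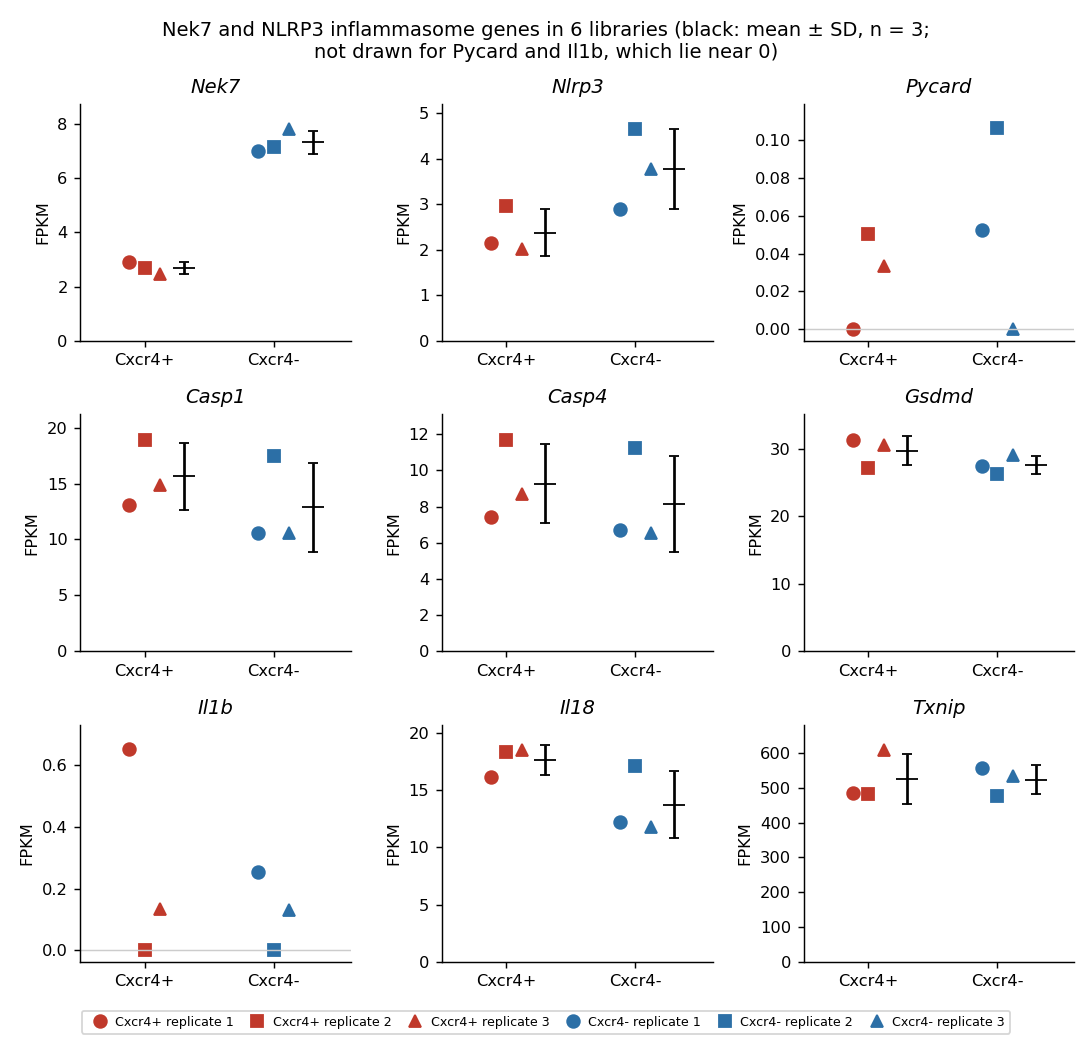
FPKM of each of the 9 members in each library, Cxcr4+ in red and Cxcr4- in blue, with the replicate number as the marker shape and the mean ± SD of 3 libraries in black (not drawn for Pycard and Il1b). The Nek7 values of 2.45 to 2.90 in Cxcr4+ lie below all Cxcr4- values of 7.02 to 7.82, and for the other 8 genes the groups overlap.

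Nlrp3, the sensor that Nek7 binds, had the next largest difference among the well-measured members. It had 2.15, 2.96 and 2.02 FPKM in Cxcr4+ replicates 1 to 3, against 2.89, 4.65 and 3.78 FPKM in Cxcr4- replicates 1 to 3. The groups overlapped narrowly, since Cxcr4+ replicate 2, the highest of its group, exceeded Cxcr4- replicate 1, the lowest of its group. The means were 2.38 ± 0.510 FPKM in Cxcr4+ and 3.78 ± 0.879 FPKM in Cxcr4- libraries (SD, n = 3 each), with a log2 fold change of -0.67 (SE 0.19). In a planned fit with replicate 2 of each group as a block, the log2 fold change was -0.67 (SE 0.12). From the libraries numbered 1 and 3 alone, a split chosen after seeing the data, it was -0.68 (SE 0.17). Within a library, the ratio of Nek7 to Nlrp3, both in FPKM, was 1.35, 0.913 and 1.21 in Cxcr4+ replicates 1 to 3, against 2.43, 1.54 and 2.07 in Cxcr4- replicates 1 to 3. The ratio thus ran from 0.913 to 1.35 in Cxcr4+ libraries and from 1.54 to 2.43 in Cxcr4- libraries, where the kinase was the more abundant in each. Because Nek7 was chosen on this comparison, the lower ratio in Cxcr4+ libraries is no separate result.

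Pycard, which encodes the adaptor ASC, was close to undetected in both groups. Its counts were 0, 12 and 8 in Cxcr4+ replicates 1 to 3, against 12, 23 and 0 in Cxcr4- replicates 1 to 3. The levels ran up to 0.0505 FPKM in Cxcr4+ and 0.106 FPKM in Cxcr4- libraries, and the mean over the 6 libraries lay at percentile 1.75 of the tested genes. Low counts in this table tend to come in steps of 4, so a limit of 3 fragments is 12 counts per library, and 1 of the 6 libraries exceeded it. The predicted gene Gm45205 overlaps Pycard on the opposite strand with up to 37 counts in a library, and whether the counting used strand is not given in the sources used here.

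Il1b, the gene of IL-1beta, was also low, though above 12 counts in 4 of the 6 libraries. Its counts were 80, 0 and 16 in Cxcr4+ replicates 1 to 3, against 28, 0 and 14 in Cxcr4- replicates 1 to 3. The level was 0.651, 0 and 0.133 FPKM in the Cxcr4+ libraries, against 0.254, 0 and 0.130 FPKM in the Cxcr4- libraries. Both libraries numbered 2 were at 0, and the highest value was that of Cxcr4+ replicate 1, the library with 20.2 FPKM of fibroblast markers; the part of that RNA in the value was not tested. Il1b and Pycard thus had little RNA in the libraries of either group, and a difference between the groups was not detectable at this depth. A commonly used mouse macrophage line is known to lack ASC; the source of the cells is given here by the labels alone and was not tested, so the low Pycard and Il1b values describe these libraries and not tumour macrophages in general.

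The caspase genes were well expressed and moved together from library to library. Casp1 had 13.1, 18.9 and 14.9 FPKM in Cxcr4+ replicates 1 to 3, against 10.6, 17.5 and 10.6 FPKM in Cxcr4- replicates 1 to 3. Casp4 had 7.44, 11.7 and 8.67 FPKM in Cxcr4+ replicates 1 to 3, against 6.68, 11.2 and 6.55 FPKM in Cxcr4- replicates 1 to 3. For both genes the library numbered 2 was the highest of its group and the groups overlapped. The log2 fold changes were 0.28 (SE 0.19) for Casp1 and 0.18 (SE 0.22) for Casp4. In a planned fit with replicate 2 of each group as a block, they were 0.30 (SE 0.09) and 0.20 (SE 0.09). From the libraries numbered 1 and 3 alone, a split chosen after seeing the data, they were 0.40 (SE 0.10) and 0.27 (SE 0.12). The values of both fits are a description and no test. While Casp1 varied 1.79-fold over the 6 libraries, the ratio of Casp1 to Casp4 in FPKM varied 1.13-fold, at 1.62 to 1.76 in the Cxcr4+ libraries, against 1.56 to 1.61 in the Cxcr4- libraries. The genes are neighbours on the forward strand of chromosome 9, Casp1 at 5298508 to 5307290 and Casp4 at 5308828 to 5336783 in GRCm39, the build of the deposited table, with 1537 bases between them.

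Gsdmd, the substrate of both caspases, was steadier. It had 31.4, 27.3 and 30.7 FPKM in Cxcr4+ replicates 1 to 3, against 27.4, 26.4 and 29.1 FPKM in Cxcr4- replicates 1 to 3, a 1.19-fold range over all libraries. Here the libraries numbered 2 were the lowest of their groups. The means were 29.8 ± 2.21 in Cxcr4+ and 27.6 ± 1.39 FPKM in Cxcr4- libraries (SD, n = 3 each). The log2 fold change was 0.10 (SE 0.11), smaller than its SE, and the groups overlapped.

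Il18, which encodes the other cytokine matured by caspase-1, was far more abundant than Il1b. It had 16.2, 18.3 and 18.5 FPKM in Cxcr4+ replicates 1 to 3, against 12.3, 17.1 and 11.8 FPKM in Cxcr4- replicates 1 to 3. Only Cxcr4- replicate 2 reached into the Cxcr4+ range. The means were 17.7 ± 1.31 FPKM in Cxcr4+ and 13.7 ± 2.93 FPKM in Cxcr4- libraries (SD, n = 3 each), with a log2 fold change of 0.36 (SE 0.15). In the planned fit with replicate 2 of each group as a block, the log2 fold change was 0.38 (SE 0.13). From the libraries numbered 1 and 3 alone, the split chosen after seeing the data, it was 0.52 (SE 0.13). Both are again a description. Bco2, which overlaps Il18 on the opposite strand, had up to 337 counts in a library, where Il18 had 641 to 1126, and reads of the overlap cannot be assigned without strand.

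Txnip was the most abundant member, at percentile 99.3 of the mean level of all tested genes. It had 486, 483 and 609 FPKM in Cxcr4+ replicates 1 to 3, against 559, 477 and 535 FPKM in Cxcr4- replicates 1 to 3. The groups lay on top of each other, with means of 526 ± 71.9 FPKM in Cxcr4+ and 524 ± 41.7 FPKM in Cxcr4- libraries (SD, n = 3 each) and a log2 fold change of 0.0002 (SE 0.14).

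**Figure D2:**
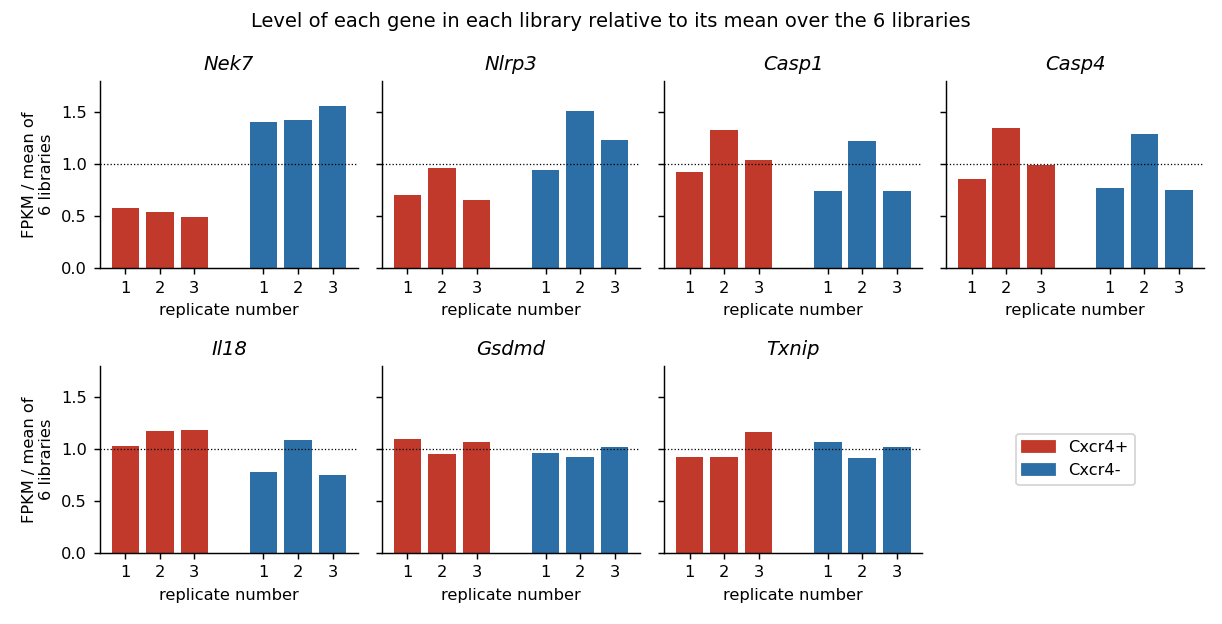
FPKM of 7 members in each library divided by the mean of that gene over the 6 libraries (bars from 0; dotted line at 1), Cxcr4+ in red left of Cxcr4- in blue, by replicate number. Nek7 is below 1 in every Cxcr4+ and above 1 in every Cxcr4- library, while Nlrp3, Casp1 and Casp4 are highest in replicate 2 of both groups. Pycard and Il1b, near 0, are left out.

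Ordered by level over all libraries, the members ran Txnip, Gsdmd, Il18, Casp1, Casp4, Nek7, Nlrp3, Il1b and Pycard, all in FPKM. The gaps below Txnip, below Gsdmd and below Nlrp3 exceeded the spread between libraries: the lowest Gsdmd value was 26.4 FPKM against at most 18.5 FPKM for Il18, and the lowest Nlrp3 value was 2.02 FPKM against at most 0.651 FPKM for Il1b. The ranges of all other neighbours in the order overlapped. Even so, Casp1 was above Casp4 in 6 of 6 libraries, Nek7 above Nlrp3 in 5 and Il18 above Casp1 in 4. Casp4 exceeded Nek7 in 4 of 6 libraries, the exceptions being Cxcr4- replicates 1 and 3. Within the pathway, the caspases, the pore protein and Il18 were thus well expressed in both groups, and the adaptor and Il1b were near 0 in both.

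**Figure D3:**
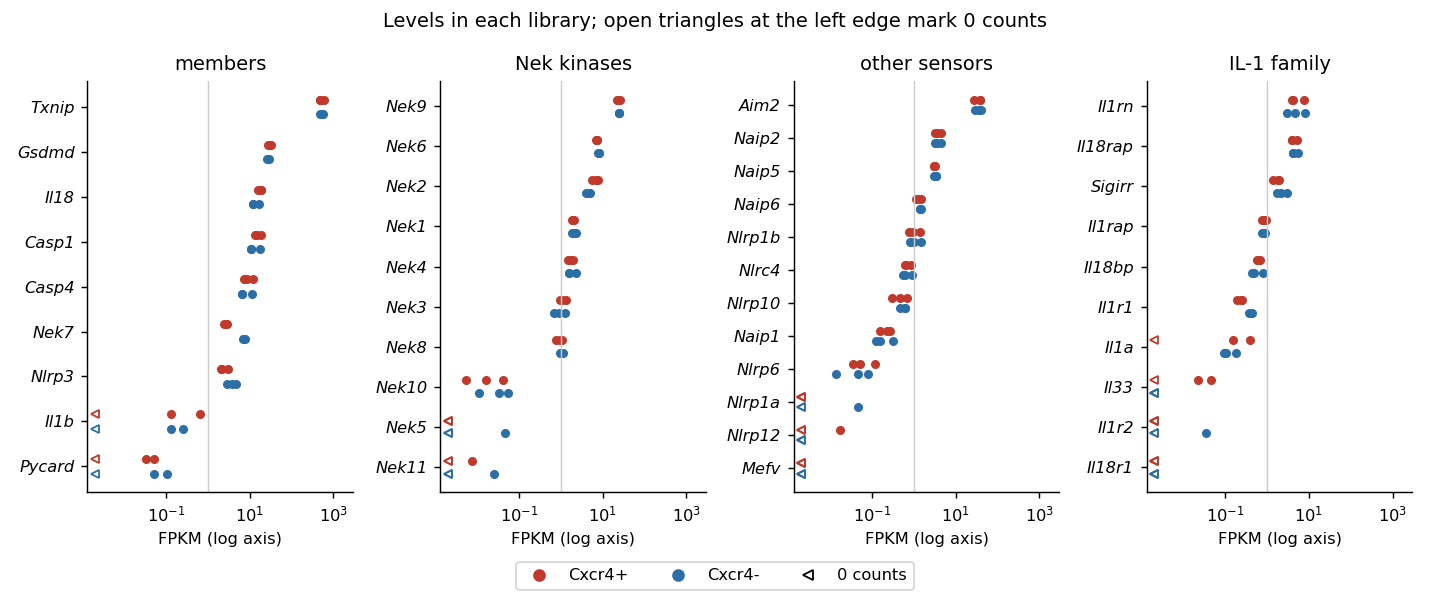
FPKM in each library on a log axis for the members, the other Nek kinases, the other inflammasome sensors and the IL-1 family, Cxcr4+ in red above Cxcr4- in blue; open triangles at the left edge mark 0 counts and the grey line 1 FPKM. Txnip is at 477 to 609 FPKM, and Il1b, Pycard and Il1a lie below 1 FPKM in every library.

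Beyond the members, 91 genes of the pathway were listed by role, of which 90 were in the table and 80 passed the filter. By edgeR's quasi-likelihood test, with 0.05 as the limit of the adjusted p, 0 of the 80 were higher and 0 lower in Cxcr4+ macrophages. Of all tested genes, 0.0312% passed. An unadjusted p under 0.05 was found for 3 of the 80 and for 4.85% of all tested genes. Limma-trend on log2(FPKM + 1) passed 0 of the 80 and 2 of all genes. DESeq2 passed 1 of the 80, Nek2, and 65 of all genes. In simulated counts, described below, 3.23% of genes altered 1.5-fold were recovered, so 0 passing does not mean no difference. The median log2 fold change of the 80 was -0.0072, with 37 positive and 43 negative. The groups did not overlap for 4 genes on the higher and 2 on the lower side in Cxcr4+, beside 5.50% and 4.87% of tested genes. The genes named below had the smallest p or the highest level in their role, except Mefv and Il18r1, which were untested and were chosen after their values of 0 were seen. The adjusted p of each tested gene named was at least 0.757 by edgeR.

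Of the other Nek kinases, 8 of 10 were tested. Nek6, the closest relative of Nek7, which acts with it in mitosis, had 7.31, 7.36 and 7.02 FPKM in Cxcr4+ replicates 1 to 3, against 7.91, 8.01 and 7.51 FPKM in Cxcr4- replicates 1 to 3 (log2 fold change -0.12, SE 0.08). The groups did not overlap, but the gap was small beside that of Nek7. Nek9, the kinase that activates Nek6 and Nek7, had the highest level of the family, 23.6 ± 2.34 FPKM in Cxcr4+ and 24.0 ± 0.209 FPKM in Cxcr4- libraries (log2 fold change -0.03, SE 0.08). Nek2, a centrosome kinase of the cell cycle, had 5.53, 7.68 and 7.01 FPKM in Cxcr4+ replicates 1 to 3, against 3.96, 4.89 and 4.56 FPKM in Cxcr4- replicates 1 to 3 (log2 fold change 0.59 with an SE of 0.13, and an adjusted p of 0.757 in edgeR and 0.0313 in DESeq2). Its groups did not overlap.

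Of 12 other sensors, 9 were tested and 0 passed. Aim2, which senses cytosolic DNA and also needs ASC, was the most abundant sensor, at 33.7 ± 6.02 FPKM in Cxcr4+ and 34.4 ± 5.71 FPKM in Cxcr4- libraries. The flagellin-binding Naip6 had a log2 fold change of -0.15 and Nlrp10 one of -0.25, at under 1 FPKM. Mefv, the gene of the sensor pyrin, had 0 counts in every library.

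Priming genes were present in both groups. Cd14, the lipopolysaccharide co-receptor, stood at 558 ± 22.0 FPKM in Cxcr4+ and 546 ± 43.3 FPKM in Cxcr4- libraries. Tlr4, the lipopolysaccharide receptor, had 2.98, 3.60 and 3.50 FPKM in Cxcr4+ replicates 1 to 3, against 2.90, 0.410 and 2.79 FPKM in Cxcr4- replicates 1 to 3. The groups did not overlap, and the low value of Cxcr4- replicate 2 weighed on the log2 fold change of 0.69 (SE 0.61), which was 0.20 (SE 0.13) without that library. The receptor kinase Irak1 had a log2 fold change of -0.12. The 7 tested genes listed for NF-kappaB were not all factors or kinases, since the inhibitor Nfkbia was among them. All had a negative log2 fold change, from -0.44 to -0.0056 with a median of -0.09, and 0 passed. Nfkbia stood at 251 ± 8.18 in Cxcr4+ and 279 ± 21.2 FPKM in Cxcr4- libraries (log2 fold change -0.16) and the subunit gene Rela had -0.09.

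Upstream of NLRP3, 8 ion channel genes were tested and 0 passed. P2rx7, the ATP-gated channel, had 2.36, 1.53 and 2.11 FPKM in Cxcr4+ replicates 1 to 3, against 1.31, 1.84 and 1.56 FPKM in Cxcr4- replicates 1 to 3, and its groups overlapped. The chloride channel protein Clic1 had a log2 fold change of 0.18 and the pannexin channel Panx1 one of 0.34. Among partners of NLRP3, the deubiquitinase Brcc3 had 0.21 with groups that did not overlap, the co-chaperone Sugt1 0.19 and the chaperone Hsp90ab1 -0.12. The genes listed as restrainers of NLRP3 were not all restrainers, since the label does not hold for the phosphatase Ptpn22. Ptpn22 had -0.0088 and Nlrc3 0.17, while Fbxl2 had at most 34 counts in a library. The guanylate-binding proteins Gbp2, Gbp3 and Gbp7, which act on lipopolysaccharide sensing by caspase-11, were under 1 FPKM in every library.

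The genes of cell death and its limits were measured in both groups. Mlkl, the pore protein of necroptosis, had 8.75, 11.2 and 7.98 FPKM in Cxcr4+ replicates 1 to 3, against 6.64, 8.62 and 7.56 FPKM in Cxcr4- replicates 1 to 3 (log2 fold change 0.29, SE 0.14). The kinases of that route, Ripk1 and Ripk3, had log2 fold changes of 0.10 each. For Vps4b, an ATPase of the membrane repair machinery, the groups did not overlap and the log2 fold change was 0.41 (SE 0.14), while its partners Chmp4b and Chmp3 had 0.02 and -0.24.

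Among the IL-1 family ligands and antagonists other than the members Il1b and Il18, the receptor antagonist Il1rn had the highest level, at 3.83, 4.08 and 7.50 FPKM in Cxcr4+ replicates 1 to 3, against 4.54, 8.13 and 2.98 FPKM in Cxcr4- replicates 1 to 3. The groups overlapped fully. Il1a, like Il1b, was near 0, with at most 48 counts in a library, and the IL-18 binding protein Il18bp had a log2 fold change of 0.13. Il1r1, the signalling IL-1 receptor, had 0.246, 0.233 and 0.190 FPKM in Cxcr4+ replicates 1 to 3, against 0.411, 0.371 and 0.431 FPKM in Cxcr4- replicates 1 to 3 (log2 fold change -0.86 with an SE of 0.23, and an adjusted p of 0.953 in edgeR). Its groups did not overlap, at under 1 FPKM throughout. For IL-18, the accessory chain Il18rap stood at 4.33 ± 0.690 in Cxcr4+ and 4.53 ± 0.749 FPKM in Cxcr4- libraries, whereas the ligand-binding chain Il18r1 had 0 counts in every library. The regulator Sigirr had a log2 fold change of -0.38. Thioredoxin itself, Txn1, the partner of Txnip, had -0.08 and the mitochondrial Txn2 had -0.10.

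**Figure D4:**
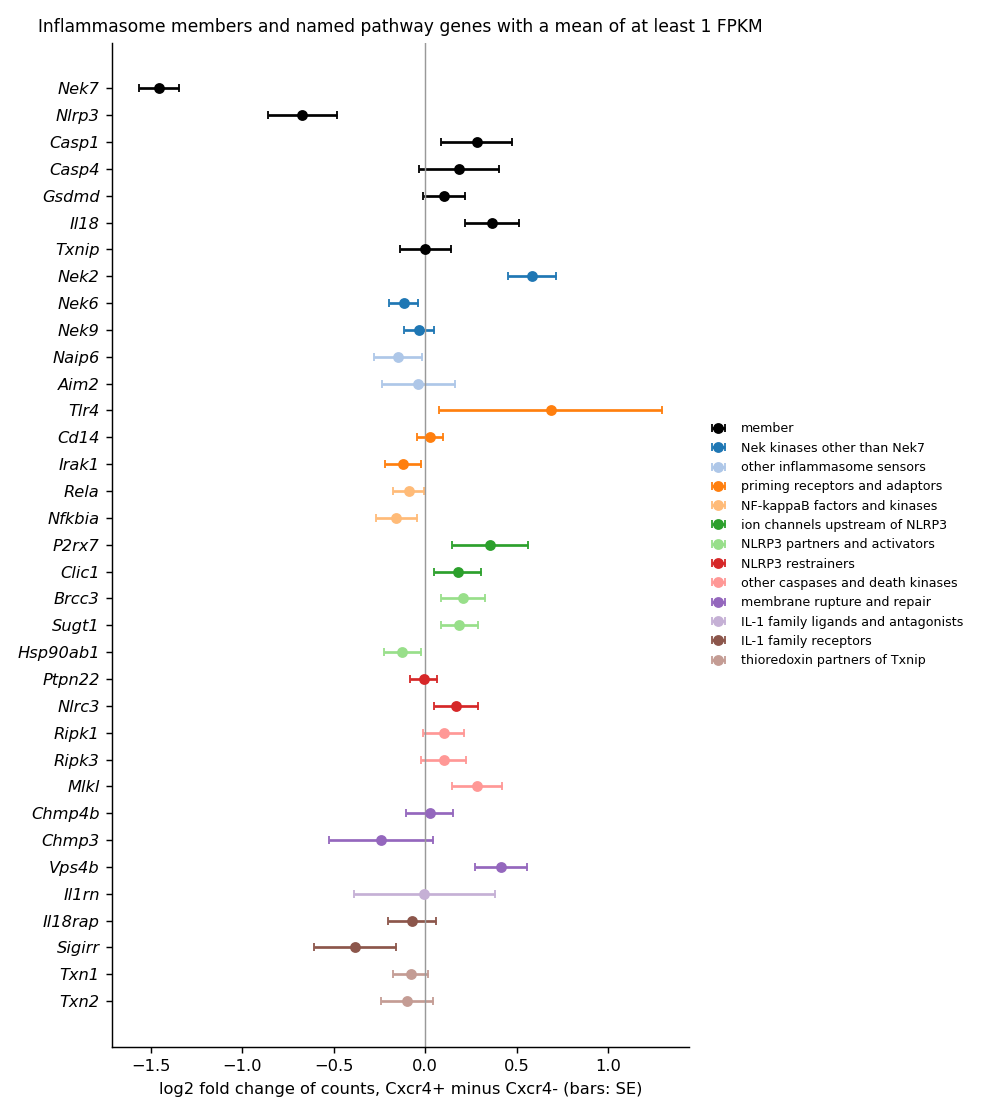
Log2 fold change of counts, Cxcr4+ minus Cxcr4-, with its SE (bars), for 7 members in black and 28 named pathway genes coloured by role, all averaging 1 FPKM or more. Nek7 at -1.45 stands farthest from 0, and Nek2 at 0.59 and Tlr4 at 0.69 are highest, Tlr4 with the widest bar.

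The genes whose pattern over the 6 libraries was most like that of Nek7, by Pearson correlation of log2(FPKM + 1) among 11123 other genes averaging 1 FPKM or more, were Jade3 (r = 0.981), Slc25a37 (0.981), Chd2 (0.981), Bscl2 (0.978), Kbtbd11 (0.978) and Fmnl2 (0.978). All points come from the same 6 libraries, and most of the Nek7 variation lay between the groups. A high r with Nek7 therefore selects genes whose groups do not overlap. That held for each of these genes, beside 10.4% of all tested genes, and is no separate result. Jade3 had 1.07 ± 0.185 FPKM in Cxcr4+ and 2.01 ± 0.0642 FPKM in Cxcr4- libraries, and the formin Fmnl2 had 3.35 ± 0.314 FPKM in Cxcr4+ and 6.23 ± 0.406 FPKM in Cxcr4- libraries (SD, n = 3 each). The rest differed less. Their Cxcr4+ mean over the Cxcr4- mean was 0.904 for Slc25a37, 0.828 for Chd2, 0.824 for Bscl2 and 0.811 for Kbtbd11. The most opposite patterns were those of the histone gene H2ac18 (r = -0.994) and of Arrb2 (r = -0.993), the gene of beta-arrestin. These differed in size. H2ac18 had 0 counts in every Cxcr4- library and 264 to 478 in the Cxcr4+ libraries. Arrb2 had 63.6 ± 0.693 FPKM in Cxcr4+ and 57.4 ± 0.793 FPKM in Cxcr4- libraries. Among the members, r with Nek7 was 0.792 for Nlrp3, -0.760 for Il18, -0.539 for Gsdmd, -0.494 for Casp1, -0.336 for Casp4 and -0.0672 for Txnip.

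On chromosome 1, Nek7 spans the reverse strand from 138410613 to 138547879 in GRCm39. The nearest protein-coding genes on either side, Atp6v1g3 at a distance of 193412 bases and Lhx9 at 205044 bases, had at most 0.0340 and 0.0610 FPKM in a library. Within its borders the table lists 3 other genes, the lncRNA gene Gm28501 with 0 counts and Gm37101 and Gm37080 with at most 4 counts in a library. The remaining members lie on chromosomes 11 (Nlrp3, 59432394 to 59457782, forward strand), 7 (Pycard, 127588880 to 127593039, reverse), 15 (Gsdmd, 75734176 to 75739257, forward), 2 (Il1b, 129206490 to 129213059, reverse), 9 (Il18, 50466127 to 50493140, forward) and 3 (Txnip, 96465273 to 96469199, forward).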

How the data were processed

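RNA was isolated with TRIzol reagent, as the labels' protocols state. The submitters' processing notes name cutadapt, HISAT2, StringTie and GRCm39 without settings. A series table deposited by the authors holds, for every library, estimated counts and FPKM. The estimated counts were whole numbers, so that rounding changed none, and 43.2% of the deposited counts from 1 to 20 were multiples of 4, where even spacing gives 25%. The deposited FPKM was 0.0001 where the count was 0 and was read as 0.

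The counts went into edgeR 4.0.16 under R 4.3.3 (filterByExpr with minimum count 10 and total 15, TMM, quasi-likelihood test with the earlier dispersion method, group as the sole term, Cxcr4+ minus Cxcr4-), with Benjamini-Hochberg adjustment over 16031 genes. Each SE was derived from the fold change and its F statistic. Simulated counts for this comparison held 15490 genes, with 62, 71 and 67 of them altered 1.5-fold, 2-fold and 4-fold. The share of altered genes recovered was 3.23% at 1.5-fold, 46.5% at 2-fold and 95.5% at 4-fold, with 5 false calls. That number belongs to a setting with many altered genes. It does not estimate the false calls among the 5 genes called in the data. Members and lists were chosen with earlier results of these data known. Genes named in the text were the members, the 2 tested genes of smallest p and the gene of highest level per role, Mefv and Il18r1 (untested, chosen after their values were seen), the 6 genes most and 2 least correlated with Nek7, and its neighbours. Alternatives were limma 3.58.1, DESeq2 1.42.0, other scalings, filters, blocks and omitted libraries. Promoter sequences are from RefSeq (GRCm38.p6), and no coordinate was converted between builds. Figures were drawn with matplotlib 3.10.9.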

Additional observations from a re-analysis of the deposited data

How the results depend on the processing

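The log2 fold change of Nek7 kept its sign under all 16 alternatives, from -1.53 to -1.18, the smallest in size being limma-trend on log2(FPKM + 1) (-1.18), where the pseudocount shrinks low values. Its call was kept in 9 of the 16 and lost in that fit, with the replicate number as a block, in the libraries numbered 1 and 3 alone and in 4 of the 6 fits that left out a library. Nlrp3, Casp1, Casp4, Gsdmd and Il18 kept their signs in 16 of 16, at -0.82 to -0.49, 0.16 to 0.52, 0.03 to 0.44, 0.04 to 0.19 and 0.28 to 0.52. Txnip changed sign in 5 of 16 (-0.14 to 0.09). All alternatives use the same libraries or a part of them, so a kept sign is no separate support. In the fit as reported, Casp4 (0.18, SE 0.22) and Gsdmd (0.10, SE 0.11) were smaller than their SE. Pycard and Il1b, near the limit of detection, are left out here.

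Of all genes, 5 passed in the fit as reported, 65 with DESeq2, 2 with limma-trend on log2(FPKM + 1), 1 to 9 with 1 library left out and 0 with the replicate block (edgeR; 1495 at an unadjusted p under 0.05). The libraries numbered 1 and 3 alone gave 5 and edgeR's bias-adjusted dispersion method 4; both were chosen after seeing the data. Deviations from the group means correlated at 0.102, 0.195 and 0.0951 for numbers 1, 2 and 3 over 11124 genes. Each Cxcr4+ library correlated best with its own number. The fit as reported held no term for the number, because the labels name no batch, and whether the numbers pair the samples is not given. The replicate block left Nek7 at -1.46, with an adjusted p of 0.0847 in edgeR's quasi-likelihood test. Of the pathway genes 0 passed in the fit as reported and in each fit without 1 library, and 1 passed with DESeq2.

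Of 589 values of 37 named pathway genes under the alternatives, 563 kept their sign and their side of the threshold and 25, of 10 genes, changed sign. With 1 library left out the log2 fold changes ran from -0.19 to 0.13 for Aim2, -0.054 to 0.14 for Chmp4b, -0.056 to 1.17 for Fbxl2, -0.60 to 0.15 for Gbp3, -0.0068 to 0.37 for Il18bp, -0.17 to 0.029 for Il18rap, -0.72 to 1.08 for Il1a, -0.41 to 0.41 for Il1rn and -0.034 to 0.013 for Ptpn22. The value for Il1a was -0.35 with the replicate block and -0.18 with replicate 2 of each group as a block. Il1rn had 0.017 and 0.028 in limma-trend with pseudocounts of 1 and 0.1, 0.0067 with the replicate block, 0.062 with replicate 2 of each group as a block, and 0.58 in the libraries numbered 1 and 3 alone, where Chmp3 had 0.10. The cause was not tested.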
